A study of Homo sapiens with 7 samples.

Results

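The microRNAs of the imprinted DLK1-DIO3 domain at 14q32 were almost silent in 7 lung-derived lines of MDA-MB-435-GFP, and miR-494 was the single member that was detected in every line. A member is an assay for a human microRNA whose number is among those of the domain. The card, a TaqMan Human MicroRNA Array A card, holds 43 such assays of 377 for human microRNAs. Assays for miR-300, miR-432, miR-543, miR-656, miR-665, miR-668 and miR-770, whose genes lie in the same domain, were not among those analysed here. MicroRNA was measured by quantitative PCR with 1 card per line and 1 well per member, so that each value has no technical repeat.

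The lines descend from MDA-MB-435-GFP, an established human tumor line that carries a green fluorescent protein gene, and all were grown out of lungs of athymic mice under G418. The L1-R1 line came from visible lung metastases, and the L1Mic-R1 line from lung of the same animal without visible metastases. After injection into further mice these gave 3 oligometastatic lines named L1-R2 (4T, 3T, 8T) and 4 polymetastatic lines named L1Mic-R2 (2T, 3T, 7T, 8T). Each line came from the lung of a distinct animal, and all share 1 parent line, so that the spread between lines is that of derivatives of 1 tumor. MDA-MB-435 was long listed as a breast line, and its profile is that of melanocytic cells. Of 6 assays for melanocytic microRNAs 4 were detected in all 7 lines. Of these, miR-204, a microRNA of pigment cells, had a raw Ct between 25.79 and 26.01 in L1-R2 and between 26.31 and 26.92 in L1Mic-R2. The groups did not overlap for miR-204 and miR-509-3-5p, and they overlapped for miR-506 and miR-508-3p. The share without overlap on raw Ct over all microRNAs was not computed, so that this is a description only. The other 2 assays were not detected throughout. The raw Ct of miR-211, from an intron of the melanocyte gene TRPM1, was between 27.49 and 30.56 in L1-R2. In L1Mic-R2 it was 33.33 in 3T and 29.00 in 7T, the latter within the L1-R2 range, and Undetermined in 2T and 8T. miR-513-5p was detected in 4T and 3T of L1-R2 alone.

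The domain is expressed from 1 parental chromosome per gene. DLK1, RTL1 and DIO3 are read from the paternal copy, while the long noncoding RNAs MEG3, MEG8 and MEG9 and the microRNAs are read from the maternal copy. The microRNAs are thought to be cut from long transcripts that run on from MEG3, and they are abundant in placenta, embryo and brain. Their joint loss or gain has been described in many tumors, including melanoma.

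All 43 members matched a mature sequence of RefSeq, 13 by the same name and 30 through the current name of the arm, and all 43 lie on chromosome 14. They come from 40 hairpin loci on the plus strand of chr14:100869060-101065991 (GRCh38.p14), a stretch of 196.932 kb. An upstream group, in which 4 hairpins overlap RTL1, that of miR-370 overlaps MEG8 and those of miR-493 and miR-337 overlap no other RefSeq gene, holds 8 members from 7 hairpins within chr14:100869060-100911213. The group from miR-379 to miR-410 holds 35 members from 33 hairpins within chr14:101022066-101065991. The members have 41 distinct seeds, bases 2 to 8 of the mature microRNA, which pair with the target. The lines below give the 7 members with any Ct and miR-376b, the silent relative of miR-376a, with the seed in capitals and in 5′ to 3′ direction.

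miR-494: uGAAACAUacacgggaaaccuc

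miR-411: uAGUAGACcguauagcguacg

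miR-376a: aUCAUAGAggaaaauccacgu

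miR-376b: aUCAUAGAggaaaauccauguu

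miR-376c: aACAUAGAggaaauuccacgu

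miR-539: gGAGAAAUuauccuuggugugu

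miR-136: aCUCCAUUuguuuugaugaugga

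miR-299-5p: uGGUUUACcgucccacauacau

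Over their first 21 bases miR-376a and miR-376b differ by 1 base, outside the seed that they share, and miR-376a and miR-376c differ by 2 bases. The miR-376 microRNAs are known for A-to-I editing of their precursors, and Ct values give no view of it. The assays of such close relatives can share signal, and how far they did so here was not tested. The other 5 detected or late members share no seed with each other or with the miR-376 microRNAs.

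The next sequences are those of members on the list of M-miRs, microRNAs prioritized in metastatic tumors of patients, that gave no Ct in any of the lines. The list was taken from tumors and not from these lines, and miR-376a and miR-539 belong to it too.

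miR-127-3p: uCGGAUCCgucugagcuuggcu

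miR-370: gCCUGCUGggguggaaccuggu

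miR-323-3p: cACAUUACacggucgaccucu

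miR-654-3p: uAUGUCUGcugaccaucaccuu

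miR-654-5p: uGGUGGGCcgcagaacaugugc

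miR-410: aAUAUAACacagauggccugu

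A Ct is the number of cycles a well needs to pass a fluorescence threshold of 0.3, and 1 cycle less stands for up to a doubling of the template. A well that did not pass within 40 cycles is Undetermined and stands at 40, which is a limit and not a measurement. A microRNA was called detected in a line below a raw Ct of 38. Of the 301 wells of the members 276 were Undetermined, 6 had a Ct between 38 and 40, and 19 were below 38. Only 9 wells were below 35, of which 7 belonged to miR-494.

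Most members stayed Undetermined, at a higher share than on the card as a whole. Of 43 members 36 were Undetermined in all 7 lines, or 83.7%, against 138 of 377 human microRNAs, or 36.6%. A Ct below 38 in at least 3 lines was found for 4 of 43 members (9.30%), where it was found for 48.0% of all human microRNAs. A Ct below 38 in all 7 lines was found for 1 member (2.33%), where it was found for 35.8% of all human microRNAs. These shares describe the card and carry no test, since members of 1 domain share transcripts.

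**Figure D1:**
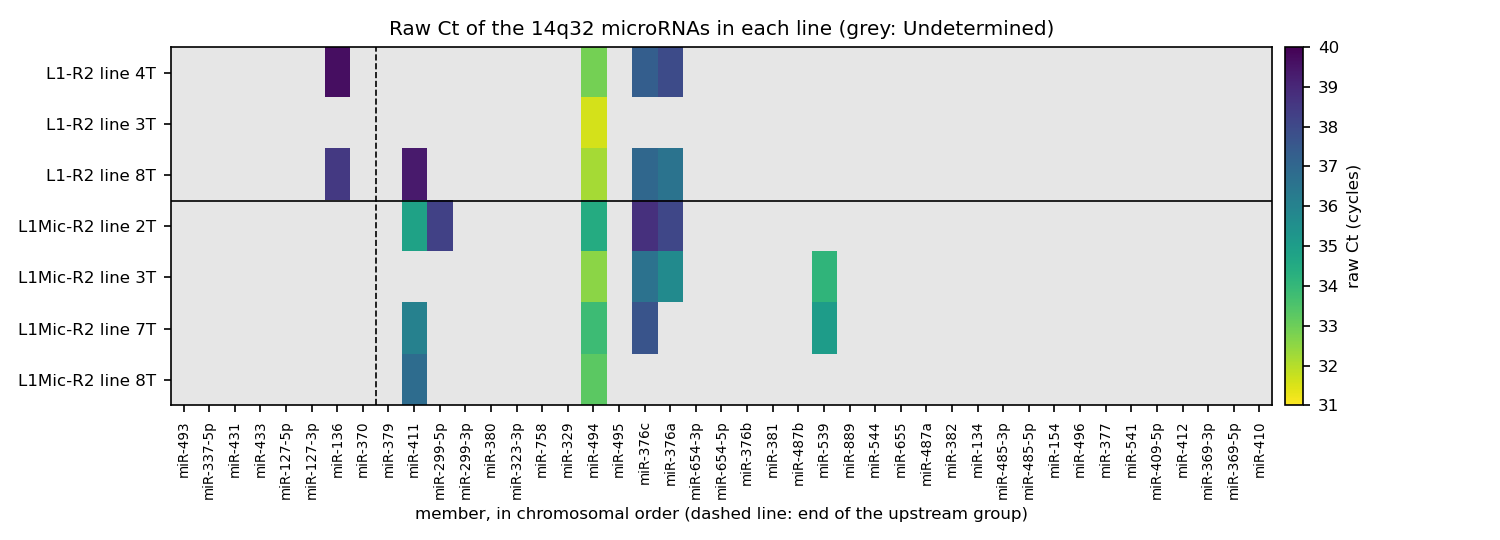
Raw Ct of each of the 43 members (columns, in chromosomal order) in each of the 7 lines (rows), with Undetermined wells in grey, a horizontal line between the groups and a dashed line at the end of the upstream group. One full column, miR-494, crosses an otherwise grey map on which 6 further members have a Ct in some lines.

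Along the chromosome, 7 of the 8 members of the upstream group (87.5%) were Undetermined in all lines, and 29 of the 35 of the other group (82.9%). None of the 8 upstream members was below 38 in any line, and miR-493, miR-337-5p, miR-431, miR-433, miR-127-5p, miR-127-3p and miR-370 were Undetermined in all 7. The hairpins of miR-431, miR-433, miR-127 and miR-136 overlap RTL1, to which these microRNAs are antisense and which they are known to target. miR-136 alone of this group had a Ct, which was late: 39.66 in L1-R2 line 4T and 38.52 in L1-R2 line 8T. It was Undetermined in L1-R2 line 3T and in the 4 L1Mic-R2 lines.

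In the group from miR-379 on, the 5 detected members were miR-494, miR-411, miR-376a, miR-376c and miR-539, and among measured members only the hairpins of miR-376c and miR-376a were neighbours. The hairpin of miR-494 lies at chr14:101029634-101029714, and its nearest measured neighbours are MIR329-2, 2450 bases upstream, and MIR495, 4040 bases downstream. Both miR-329 and miR-495 were Undetermined in all 7 lines. The hairpin of miR-411 lies at chr14:101023325-101023420, 1192 bases after MIR379 and 373 bases before MIR299. Of these neighbours miR-379 and miR-299-3p were Undetermined throughout, and miR-299-5p had 1 late Ct of 38.26, in L1Mic-R2 line 2T. The hairpin of miR-539 lies at chr14:101047321-101047398, between MIR487B and MIR889, 782 and 502 bases away, and neither neighbour gave a Ct. RefSeq places MIR494, MIR411 and MIR299 within the noncoding gene LOC124903407 and MIR539 within MIR381HG, a microRNA host gene. The members of this group that gave no Ct in any line were miR-379, miR-299-3p, miR-380, miR-323-3p, miR-758, miR-329, miR-495, miR-654-3p, miR-654-5p, miR-376b, miR-381, miR-487b, miR-889, miR-544, miR-655, miR-487a, miR-382, miR-134, miR-485-3p, miR-485-5p, miR-154, miR-496, miR-377, miR-541, miR-409-5p, miR-412, miR-369-3p, miR-369-5p and miR-410.

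Both arms of the hairpin were measured for miR-127, miR-299, miR-369, miR-485 and miR-654, and for 4 of these 5 hairpins both arms were Undetermined in all lines. Of the 8 M-miRs among the members 6 were Undetermined in all 7 lines, and miR-376a and miR-539 were detected in some.

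Other cell types were checked with lists of marker microRNAs. Of 6 assays for mesenchymal microRNAs, miR-143, miR-145, miR-199a-5p, miR-199b-5p and miR-214 were Undetermined in all 7 lines. The sixth, miR-199a-3p, had a Ct of 35.88 in L1-R2 line 8T, 36.08 in L1Mic-R2 line 2T and 36.19 in L1Mic-R2 line 7T. Of 8 blood and endothelial assays 1, miR-126, was detected in all lines, while miR-142-5p and miR-451 were Undetermined in all. The raw Ct of miR-126 was between 32.46 and 35.06 in L1-R2 and between 28.71 and 32.41 in L1Mic-R2. Its nearest wells, 32.46 in L1-R2 line 3T and 32.41 in L1Mic-R2 line 8T, were almost level. The level of miR-150 went the other way from that of miR-126, as given below with miR-411. Of 7 epithelial assays 2 were detected in all lines and miR-205 and miR-141 in none. In RNA from whole cultures, fewer cells that express a microRNA and less of it per cell cannot be told apart.

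miR-494 was the one member below a Ct of 35 in all 7 lines. In L1-R2 it had a raw Ct of 32.87 in 4T, 31.57 in 3T and 32.21 in 8T. Its raw Ct in L1Mic-R2 was 34.45 in 2T, 32.56 in 3T, 33.83 in 7T and 33.28 in 8T. Its level was lowest in L1Mic-R2 line 2T and highest in L1-R2 line 3T, and the groups overlapped because L1Mic-R2 line 3T lay between L1-R2 lines 4T and 8T. It was not among the lowest Ct values of the card: of the 135 human microRNAs detected in all lines, its Ct ranked between 91 and 122 from the lowest, and their median Ct was between 28.91 and 29.49. A Ct also depends on the efficiency of its assay, so that this order is an approximate one.

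For the comparison of the groups, Ct values were quantile normalized over the cards and fitted with limma, and a microRNA entered the fit when it was detected in at least 3 of the 7 lines. Differences are given on the log2 scale as L1Mic-R2 over L1-R2, with the Benjamini-Hochberg adjusted p over the 181 microRNAs fitted. The comparison asks whether the level of a member differed between oligometastatic and polymetastatic lines. Of the 4 members fitted, 0 passed an adjusted p of 0.05, where 4.97% of the 181 microRNAs passed. At an unadjusted p of 0.05, 1 member passed, miR-411, where 19.3% of the 181 passed. miR-411 was detected in 0 L1-R2 lines and 3 L1Mic-R2 lines, so that it entered the fit only through the group where it is higher, and its p is no support for a difference. The groups overlapped in normalized Ct for all 4 members, while they did not overlap for 19.3% of the 181. The median log2 difference was 0.85 for the 4 members and 0.06 for the 181, and that of the 4 turned to -0.21 on raw Ct. The cards of L1-R2 were numbered 1 to 3 and those of L1Mic-R2 4 to 7, so that card order and group cannot be told apart.

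After normalization the mean Ct of miR-494 in L1-R2 was 32.27 ± 0.82 (SD, n = 3), against 33.40 ± 0.93 (SD, n = 4) for L1Mic-R2. Its log2 difference was -1.13 (SE 0.62, limma adjusted p = 0.388), and the exact two-sided permutation test over lines gave p = 0.229, where the smallest p it allows is 0.0571. On raw Ct the log2 difference of miR-494 was -1.32 (SE 0.53, limma unadjusted p = 0.0445, adjusted p = 0.229), and against RNU44 and RNU48 it was -0.51 (SE 0.80, limma unadjusted p = 0.538, adjusted p = 0.711).

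**Figure D2:**
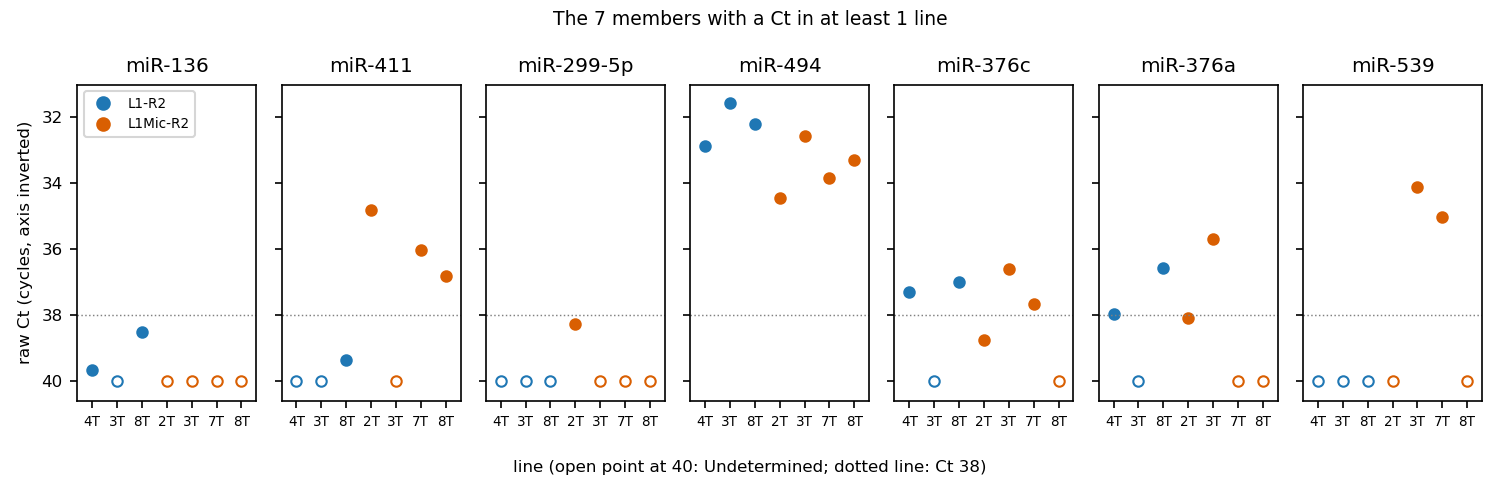
Raw Ct (vertical axis, cycles, inverted so that more RNA is higher) of the 7 members with a Ct in at least 1 line, for the 3 L1-R2 lines in blue and the 4 L1Mic-R2 lines in orange, with Undetermined wells as open points at 40 and a dotted line at 38. miR-494 lies above the dotted line in every line, and miR-411 and miR-539 do so only in L1Mic-R2 lines.

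miR-411 and miR-539 were detected in L1Mic-R2 lines alone, though not in all of them. miR-411, whose hairpin follows that of miR-379 at the start of the distal group, was Undetermined in L1-R2 lines 4T and 3T and had a raw Ct of 39.35 in L1-R2 line 8T. Its raw Ct in L1Mic-R2 was 34.81 in 2T, 36.03 in 7T and 36.82 in 8T, while 3T was Undetermined. Thus 3 of 4 L1Mic-R2 lines lay clear of every L1-R2 line, and 1 did not. The mean normalized Ct of miR-411 in L1-R2 was 39.90 ± 0.18 (SD, n = 3), against 36.82 ± 2.23 (SD, n = 4) for L1Mic-R2, with Undetermined wells counted at 40. Its log2 difference was 3.08 (SE 1.20, limma unadjusted p = 0.0410, adjusted p = 0.218), and the exact permutation test gave p = 0.229. Fitted without the filter, which it passed through L1Mic-R2 lines alone, its limma adjusted p was 0.486. Because 40 is a limit, the size of this difference is not a measured fold, and with Ct limited to 38 it was 1.68. Leaving out L1Mic-R2 line 3T, the one line of that group without a Ct, gave a log2 difference of 4.14 (SE 0.46, limma adjusted p = 0.0415), but the filter and the choice of that line both rest on the values tested, so that this p is no support either. The endothelial microRNA miR-126 was also higher in L1Mic-R2, as given above, but others of its list went both ways. miR-150 had a raw Ct between 33.09 and 34.93 in L1-R2. In L1Mic-R2 it had 35.54 in 2T and 37.46 in 8T and was Undetermined in 3T and 7T. miR-142-3p was detected in 4T and 3T of L1-R2 alone, and miR-223 in 4T of L1-R2 and in 2T, 3T and 8T of L1Mic-R2. Between 2 and 5 of the 8 blood and endothelial assays were detected in the L1-R2 lines and between 1 and 4 in the L1Mic-R2 lines. The part of such cells in the result for miR-411 was not tested.

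miR-539, an M-miR, had a raw Ct of 34.12 in L1Mic-R2 line 3T and of 35.03 in L1Mic-R2 line 7T. It was Undetermined in the 3 L1-R2 lines and in L1Mic-R2 lines 2T and 8T. It was thus high in 2 of 4 L1Mic-R2 lines and not detected in the others, and with 2 lines it did not enter the fit. Fitted without that filter, miR-539 had a log2 difference of 2.75 (SE 1.84, limma adjusted p = 0.826).

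Line 3T of L1Mic-R2 thus had the lowest Ct of miR-539 and none of miR-411, and line 7T had both. Lines 2T and 8T had miR-411 and not miR-539. The 2 hairpins lie in the same group on the chromosome, and their detection did not go together across the 4 L1Mic-R2 lines.

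The miR-376 microRNAs were detected late and in both groups. miR-376a, an M-miR with hairpins at chr14:101040069-101040148 and chr14:101040782-101040849, had a raw Ct of 37.95 in L1-R2 line 4T, was Undetermined in line 3T and had 36.57 in line 8T. Its raw Ct in L1Mic-R2 was 38.10 in 2T and 35.68 in 3T, while 7T and 8T were Undetermined. miR-376c, from a hairpin at chr14:101039690-101039755, 313 bases upstream of the nearer one, had a raw Ct of 37.30 in L1-R2 line 4T, was Undetermined in line 3T and had 37.00 in line 8T. For L1Mic-R2 it was 38.75 in 2T, 36.59 in 3T and 37.66 in 7T, while 8T was Undetermined. Both were thus lowest in Ct in L1Mic-R2 line 3T, and neither gave a Ct in 3T of L1-R2 or in 8T of L1Mic-R2. miR-376b, from the hairpin at chr14:101040436-101040535 between those of miR-376a, was Undetermined in all 7 lines.

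Neither miR-376a nor miR-376c differed beyond the spread between lines, and their direction depended on the scale and, for miR-376a, on L1-R2 line 3T, without which its log2 difference was -0.061. After quantile normalization of all lines its mean Ct in L1-R2 was 38.76 ± 1.76 (SD, n = 3), against 38.16 ± 2.25 (SD, n = 4) for L1Mic-R2. The log2 difference of miR-376a was then 0.60 (SE 1.43, limma adjusted p = 0.842) and on raw Ct -0.27. The mean normalized Ct of miR-376c in L1-R2 was 39.06 ± 0.89 (SD, n = 3), against 37.97 ± 1.52 (SD, n = 4) for L1Mic-R2. Its log2 difference was 1.09 (SE 0.91, limma adjusted p = 0.566) and on raw Ct -0.15. The normalization gives the same distribution to cards with unequal numbers of Undetermined wells, and the order of late wells changed with it. The Ct of miR-376a moved from 37.95 to 39.54 in L1-R2 line 4T and from 38.10 to 37.26 in L1Mic-R2 line 2T.

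The median log2 difference of all 181 microRNAs also moved with the scale. It was 0.06 after quantile normalization, -0.25 on raw Ct, -0.19 against U6, 0.56 against RNU44 and RNU48, and -0.01 against the mean of the detected microRNAs. Relative to the median on raw Ct, the difference was 3.11 for miR-411, -1.07 for miR-494, 0.10 for miR-376c and -0.02 for miR-376a on the log2 scale. Scaling by a control shifts all microRNAs alike, so these values are the same for the controls and for the mean.

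**Figure D3:**
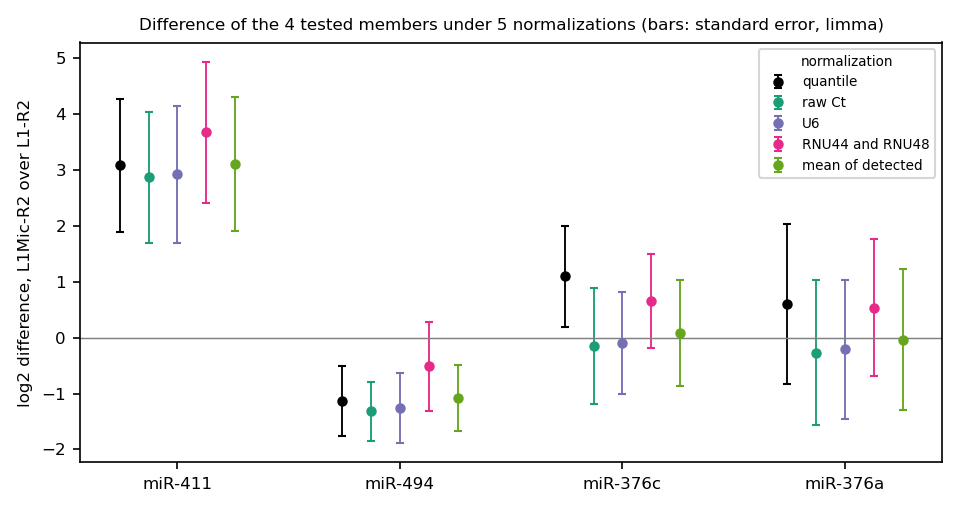
Log2 difference, L1Mic-R2 over L1-R2, of the 4 members fitted (horizontal axis) under 5 normalizations (colours), with the standard error from limma as bars. miR-411 stays above 0 and miR-494 below 0 under all 5, while miR-376a and miR-376c lie on either side of 0 depending on the scale. The L1-R2 wells of miR-411 stand at or near 40, so that its side of 0 is no support for a difference. Against RNU44 and RNU48 the difference of miR-494 was -0.51, smaller in size than its standard error of 0.80.

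Among the L1-R2 lines, 3 members were detected in 4T, 1 in 3T and 3 in 8T. Among the L1Mic-R2 lines, 2 were detected in 2T, 4 in 3T, 4 in 7T and 2 in 8T. The means were 2.33 ± 1.15 (SD, n = 3) for L1-R2 and 3.00 ± 1.15 (SD, n = 4) for L1Mic-R2, which differ by less than the spread between lines. Between 2.33% and 9.30% of the members were detected in a line, while of all human microRNAs between 42.4% and 48.8% were. The count over all human microRNAs was between 160 and 172 in the L1Mic-R2 lines and between 172 and 184 in the L1-R2 lines. The part of total detection in the calls of miR-411 and miR-539 was not tested.

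Detection in 2 other microRNA clusters is given beside that of the members. The placental cluster C19MC, which is imprinted too, has 35 assays, of which 22 (62.9%) were Undetermined in all lines and 0 were detected in all 7. The cluster at Xq27 from miR-506 to miR-514, known from melanocytic cells and testis, has 8 assays, of which 6 (75.0%) were detected in all 7 lines. Of C19MC, L1-R2 had 5 microRNAs detected in 4T, 0 in 3T and 5 in 8T, and L1Mic-R2 had 1 in 2T, 2 in 3T, 3 in 7T and 0 in 8T. The 2 lines without a detected C19MC microRNA, 3T of L1-R2 and 8T of L1Mic-R2, are those without a Ct for either miR-376a or miR-376c. miR-376a by itself also lacked a Ct in L1Mic-R2 line 7T, which had 3 detected C19MC microRNAs. The match of the 2 lines mixes detection with any Ct, and it was not kept when either was used for both. L1Mic-R2 line 2T had 1 detected C19MC microRNA, while miR-376a (38.10) and miR-376c (38.75) were too late to be called detected. With any Ct counted, C19MC had 2 microRNAs in L1-R2 line 3T, 3 in L1Mic-R2 line 8T and 1 in L1Mic-R2 line 2T. L1Mic-R2 line 8T had the fewest detected human microRNAs, and the part of total detection in the gaps of C19MC, miR-376a and miR-376c was not tested.

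**Figure D4:**
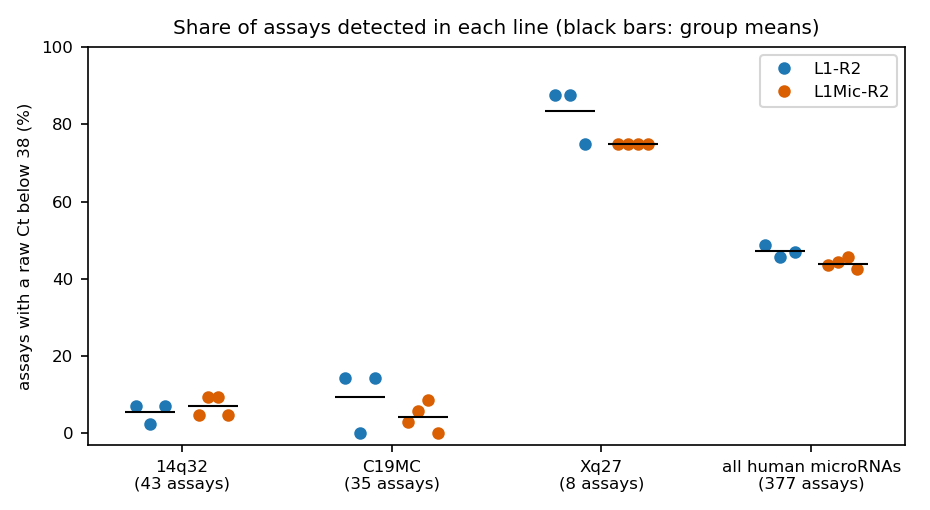
Share of assays with a raw Ct below 38 in each line (vertical axis, percent) for the 14q32 members, C19MC, the Xq27 cluster and all human microRNAs, with L1-R2 lines in blue, L1Mic-R2 lines in orange and group means as black bars. The 14q32 members lie between 2.33% and 9.30% in all 7 lines, far below the 42.4% to 48.8% of all human microRNAs.

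The fluorescence that the Undetermined wells had reached is described too, and it is no independent measure of detection. The files hold a value per well that was below 0.3 in every Undetermined well and above 0.3 in every well with a Ct, and it is called end fluorescence here, on the scale of the threshold. The card carries ath-miR159a, a plant microRNA with no counterpart in human cells, which was Undetermined on all 7 cards with an end fluorescence between 0.0230 and 0.0865. The 276 Undetermined wells of the members had a median of 0.0273, and 24 of them (8.70%) lay above the highest well of the plant assay. For the 1088 Undetermined wells of other human microRNAs the median was 0.0265, and 120 (11.03%) lay above it. Most Undetermined wells of the members thus did not exceed the highest well of the plant assay, and the same held for the rest of the card. How far the background differs between assays was not tested.

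Of the 36 members that never gave a Ct, 25 lay below the highest plant well in all 7 lines. The M-miRs miR-127-3p, miR-370, miR-654-5p and miR-410 were among these 25, while miR-323-3p and miR-654-3p lay above it in 1 line each. miR-487a lay above it in all 7 lines. Its end fluorescence in L1-R2 was 0.201 in 4T, 0.175 in 3T and 0.228 in 8T, and in L1Mic-R2 0.178 in 2T, 0.157 in 3T, 0.209 in 7T and 0.135 in 8T. It kept below the threshold everywhere, and its groups overlapped. miR-758 lay above the highest plant well in 4 lines, with 0.0899 in 4T, 0.178 in 3T and 0.257 in 8T of L1-R2 and 0.114 in 3T of L1Mic-R2. Whether such signal comes from template or from the background of an assay was not tested.

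For the members detected in some lines, end fluorescence showed how close the Undetermined wells came to the threshold. In L1Mic-R2, miR-411 reached 1.40 in 2T, 1.51 in 7T and 1.08 in 8T and stayed at 0.0219 in 3T, below every plant well. miR-539 reached 2.07 and 1.61 in L1Mic-R2 lines 3T and 7T. In L1-R2 line 8T, where miR-539 was Undetermined, it stood at 0.236, below the threshold and above the plant assay. miR-376a stood at 0.279 in L1Mic-R2 line 7T, the highest of the Undetermined wells of the members. The line between detected and Undetermined was thus narrow for miR-376a in that line, and wide for miR-411 in L1Mic-R2 line 3T.

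**Figure D5:**
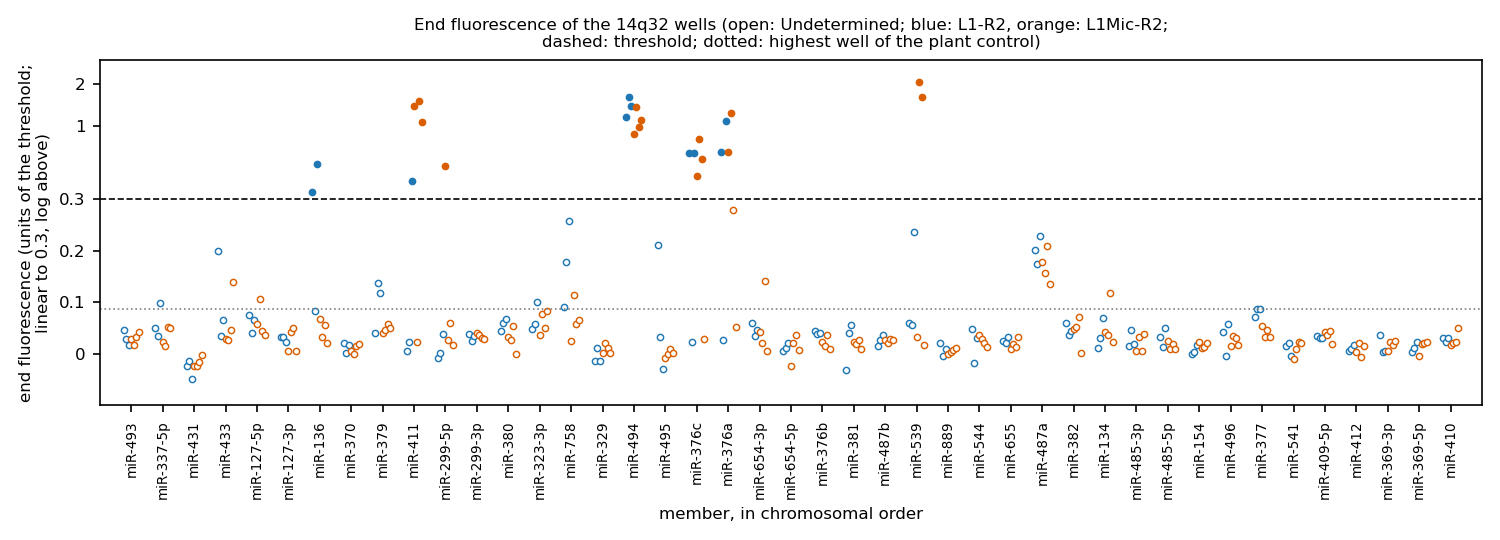
End fluorescence (vertical axis, units of the threshold, linear to 0.3 and logarithmic above) of each member (horizontal axis, in chromosomal order) in L1-R2 lines (blue) and L1Mic-R2 lines (orange), with Undetermined wells open, the threshold dashed and the highest well of the plant assay dotted. Most silent members lie under the dotted line, and miR-487a lies between both lines in all 7 lines.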

How the data were processed

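In each of 3 L1-R2 and 4 L1Mic-R2 lines, microRNA was assayed by quantitative PCR from 30 ng total RNA extracted with TRIzol, with Megaplex reverse transcription, on a 7900HT instrument. The authors deposited, per well, the average Ct in cycles, a log2 scale, with Undetermined wells at 40, and a score without a column name, here called end fluorescence. The baseline was set from cycle 3 to 15 for most wells. The deposited values used here precede normalization, and these files hold no column of comparisons. Normalized values that the methods mention were not used here. No counts exist in these files, so that precision is limited by the number of lines.

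Groups and line numbers follow the labels. For 3T and 4T of L1-R2 the deposited names carry each other's number, and which is right is not known. If the deposited names are right, the values given here for these lines change places. Group means and the tests over all lines do not depend on it, apart from pairing by number. Labels name SYBR and injection into the mammary fat pad, whereas TaqMan assays and tail vein injection are described in the methods, which were followed.

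Ct values of 381 assays, human microRNAs and controls, were quantile normalized over 7 cards, and 40 minus Ct was fitted with lmFit and eBayes of limma 3.58.1 in R 4.3.3, with Benjamini-Hochberg adjustment over 181 microRNAs with a raw Ct below 38 in at least 3 lines. The fit was tested on simulated data. Exact two-sided permutation tests over the 35 splits of the lines used scipy 1.17.1 in Python 3.11.15. A p here measures the spread between derivative lines, which share a founder line within each group. Alternatives were raw Ct, 3 other scalings, Ct limits, other filters, limma with trend and robust fitting, a two-tailed t-test, replicate blocks and each line left out. The methods give that t-test for the tumor samples and not for these lines.

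Sequences and loci are those of RefSeq (GRCh38.p14). The sequence of each assay's probe was not used here, and older names were matched to the arm that carries them now.

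Members and lists were chosen with earlier results of these data known. Members named with values were those detected in all lines, those at an unadjusted p under 0.05, those whose groups do not overlap, the M-miRs, both arms of a detected hairpin and members detected in 1 or 2 lines. miR-376c, miR-136, miR-299-5p, miR-487a and miR-758 were named after their values were seen.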

Additional observations from a re-analysis of the deposited data

Results flagged for a closer look

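miR-299-5p stood apart in L1Mic-R2 line 2T, with a normalized Ct of 37.3 where the other 3 L1Mic-R2 lines were Undetermined. In a group of Undetermined wells any Ct stands apart, and the raw Ct of this well was 38.26, beyond the limit of 38 for detection. This held for 1 of 8 results examined, and by chance about 1 in 20 would be found. No explanation of it was tested.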

How the results depend on the processing

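For the 4 members fitted, 57 values of the difference under the alternatives kept both direction and side of the threshold, 7 turned in direction and 1 passed the threshold. The difference of miR-376a turned to -0.27 on raw Ct, -0.21 against U6, -0.034 against the mean of detected microRNAs and -0.061 without L1-R2 line 3T, and that of miR-376c turned to -0.15 on raw Ct and -0.095 against U6. Leaving out 1 line gave -0.061 to 1.24 for miR-376a, 0.55 to 1.85 for miR-376c, 2.95 to 4.14 for miR-411 and -1.50 to -0.68 for miR-494, with miR-376a and miR-411 fitted in 4 of the 7 such fits each. The filter drops miR-411 where L1Mic-R2 line 2T, 7T or 8T, its detected lines, is left out, so that its range lacks the fits that would lower it, and it drops miR-376a without L1-R2 line 4T or 8T or L1Mic-R2 line 3T. With a replicate block by the numbers of the labels the differences were -0.70 for miR-494, 1.95 for miR-411, 0.68 for miR-376a and 0.94 for miR-376c. With a replicate block by the numbers in the file names that of miR-494 turned to 0.11. The numbers are no known pairing: the deviations of lines of equal number correlated at -0.04 for 3T and -0.20 for 8T.

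The number of members at an unadjusted p under 0.05 was 2 on raw Ct. It was 0 against U6, with Ct limited to 35, with Ct below 38 in all lines, without a filter, with trend and robust fitting, with the t-test and with either replicate block, and 0 to 1 with a line left out. At an adjusted p under 0.05 it was 0 to 1 with a line left out, the 1 being miR-411 without L1Mic-R2 line 3T, and 0 under the other alternatives, the t-test included. The median difference was -1.13 with Ct below 38 in all lines, where miR-494 is the one member fitted, and 0.23 to 1.50 with a line left out. It turned to -0.21 on raw Ct and -0.15 against U6, and was 0.025 against the mean of detected microRNAs, 0.29 with Ct limited to 38 and 0 over all 43 members without a filter. The group difference in members detected per line was 0 to 1.0 with a line left out. With Ct limited to 35 the wells of miR-376a and miR-376c have no spread, so that no value is given, and miR-411 falls to 0.05, against 1.68 with Ct limited to 38. Adjusted p over the alternatives was 0.229 to 0.956 for miR-494, 0.0415 to 0.718 for miR-411, 0.670 to 1.0 for miR-376a and 0.233 to 0.956 for miR-376c. All members but miR-494 were read near the limit of the assay, where 1 well decides a call. The causes of these changes were not tested.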
